A study of Mus musculus with 3 samples.

Results

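The skeletal muscle sarcomere and excitation genes described here are 45 genes found by symbol among the 51826 genes of an expression table of the embryonic mouse spinal cord, and each of the 45 was found once. They encode the thin filament (11 genes), the thick filament and M line (10), the Z disc, titin and membrane linkage (9), excitation and calcium handling (10), and muscle energy supply and sarcomere assembly (5). RNA was sequenced from the spinal cord of C57BL/6 mice at embryonic day 13.5, in 1 library for each of 3 genotypes. WT was wild type. The dE3 library came from Nestin-Cre;Ctnnb1-floxed(Ex3) mice, in which deletion of exon 3 of Ctnnb1 gives a gain of function of beta-catenin. The cKO library came from Nestin-Cre;Ctnnb1-floxed(Ex2-6) mice, in which exons 2 to 6 are deleted (loss of function). Nestin-Cre is a transgene known for recombination in neural progenitors, and also reported in some cells outside the nervous system, so the deletion is not one of muscle by design. The labels do not give the number of embryos in a library, nor whether the WT mice carried Cre or a floxed allele. With 1 library per genotype there is no replicate error and no p-value, and every ratio compares single libraries, not genotypes in general. The library names of WT and dE3 carry the tag L2 and that of cKO the tag L3, so the tag and the cKO genotype cannot be told apart.

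In striated muscle, thick filaments of myosin slide along thin filaments of actin, tropomyosin and troponin. The Z disc anchors the thin filaments, the M line holds the thick filaments together, and titin spans from one to the other. A voltage sensor in the membrane opens the calcium release channel of the sarcoplasmic reticulum, and calcium binding to troponin starts contraction. Embryonic skeletal muscle is known to use developmental forms of these proteins, among them embryonic and neonatal myosin and cardiac actin, alongside the forms of adult fast and slow fibres. Neurons and glia of the spinal cord build no sarcomeres, although several calcium handling genes of muscle are also transcribed in neurons.

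Promoter sequences are shown because most of the genes below were high in the same library, and they let a reader see the muscle promoter motifs. RefSeq's promoter table on GRCm38.p6 matched 35 of the 45 genes. The 250 bases before the start site are printed for 4 genes with a high level or a large ratio in dE3 (Actc1, Acta1, Myh3 and Tnni1) and for Ryr1, which differed little between the libraries; these 5 were chosen after their values were seen. Capitals mark E-boxes (CANNTG, the class of site bound by MYOD1 and its relatives), TATAAA, CArG boxes (the site of serum response factor) and MEF2 sites, searched on both strands. The sequences lie at chr2:114052876-114053125 (minus strand, Actc1), chr8:123894776-123895025 (minus, Acta1), chr11:67078050-67078299 (plus, Myh3), chr1:135799171-135799420 (plus, Tnni1) and chr7:29125152-29125401 (minus, Ryr1).
Actc1: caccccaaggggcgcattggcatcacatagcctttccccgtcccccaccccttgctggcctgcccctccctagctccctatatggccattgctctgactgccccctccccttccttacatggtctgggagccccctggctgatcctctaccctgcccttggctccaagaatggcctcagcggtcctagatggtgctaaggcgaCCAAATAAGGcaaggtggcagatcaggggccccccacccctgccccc
Acta1: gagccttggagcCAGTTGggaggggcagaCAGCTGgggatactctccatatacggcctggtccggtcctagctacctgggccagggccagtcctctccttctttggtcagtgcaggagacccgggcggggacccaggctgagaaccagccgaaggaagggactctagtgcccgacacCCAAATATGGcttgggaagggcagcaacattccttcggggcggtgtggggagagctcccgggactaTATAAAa
Myh3: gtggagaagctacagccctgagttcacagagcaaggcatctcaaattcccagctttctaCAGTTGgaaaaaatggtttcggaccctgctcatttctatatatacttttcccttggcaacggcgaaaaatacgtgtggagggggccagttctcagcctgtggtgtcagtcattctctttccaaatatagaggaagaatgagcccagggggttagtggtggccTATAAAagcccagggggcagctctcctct
Tnni1: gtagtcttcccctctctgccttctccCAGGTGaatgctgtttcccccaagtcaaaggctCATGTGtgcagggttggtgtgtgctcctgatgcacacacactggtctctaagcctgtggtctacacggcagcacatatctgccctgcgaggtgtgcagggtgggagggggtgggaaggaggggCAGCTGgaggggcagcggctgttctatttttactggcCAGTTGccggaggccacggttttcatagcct
Ryr1: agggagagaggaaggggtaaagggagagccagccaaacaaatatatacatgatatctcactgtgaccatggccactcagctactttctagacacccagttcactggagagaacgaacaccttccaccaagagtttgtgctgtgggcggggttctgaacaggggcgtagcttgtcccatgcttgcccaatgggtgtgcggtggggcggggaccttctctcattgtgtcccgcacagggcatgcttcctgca
The Actc1 and Acta1 promoters each held a CArG box, with its first base at −47 and −73 from the start site. Acta1 held E-boxes at −238 and −221, and Tnni1 held 4, at −224, −191, −68 and −31. Myh3 held 1 E-box at −191 and TATAAA at −29. Actc1 also had an E-box at 9 and TATAAA at 34 bases after the listed start, in sequence not printed. The Ryr1 window had none of the 4 motifs. In 300-base windows (250 before to 50 after the start), CANNTG was present in 31 of the 35 genes (88.6%) and in 72.1% of 27025 promoters of all genes. CAGCTG, 1 form of the E-box, was present in 17 (48.6%) against 16.1%. TATAAA was present in 8 (22.9%) against 14.2%. The CArG box was present in 4 (11.4%) against 1.57%, and the MEF2 site in 6 (17.1%) against 3.26%. A match is a description of the letters, not evidence that a factor binds there.

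Most of these muscle genes were higher in the dE3 spinal cord than in WT, and many were higher in cKO to a smaller degree. Levels are CPM, that is, estimated counts divided by the scaled library size and set to a common total. A gene was measured if it had at least 20 counts in at least 1 library, and it was called higher or lower if the ratio was at least 2-fold and its 95% interval for counting error left out 1. Of the 45 genes 41 were measured, 7 of them only through their count in dE3 (Tnni2, Myoz2, Sgca, Cacna1s, Cav3, Ckm and Klhl41). Against WT, 33 of the 41 were called higher in dE3, 0 lower and 8 neither. Among all 18074 measured genes 6.52% were called higher and 3.78% lower in the same comparison. In cKO 20 were called higher than WT, 1 lower and 20 neither (among them Ckm, at 0 in both libraries), against 3.48% and 3.41% of all measured genes. Directly between the mutants, 32 were called higher in dE3 than in cKO and 0 lower, against 6.62% and 4.38%. These 3 comparisons share libraries. Without a minimum count the levels ran in the order dE3, cKO, WT in 35 of the 45 genes. The share of all genes with that order was not computed, so this count is a description only.

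**Figure D1:**
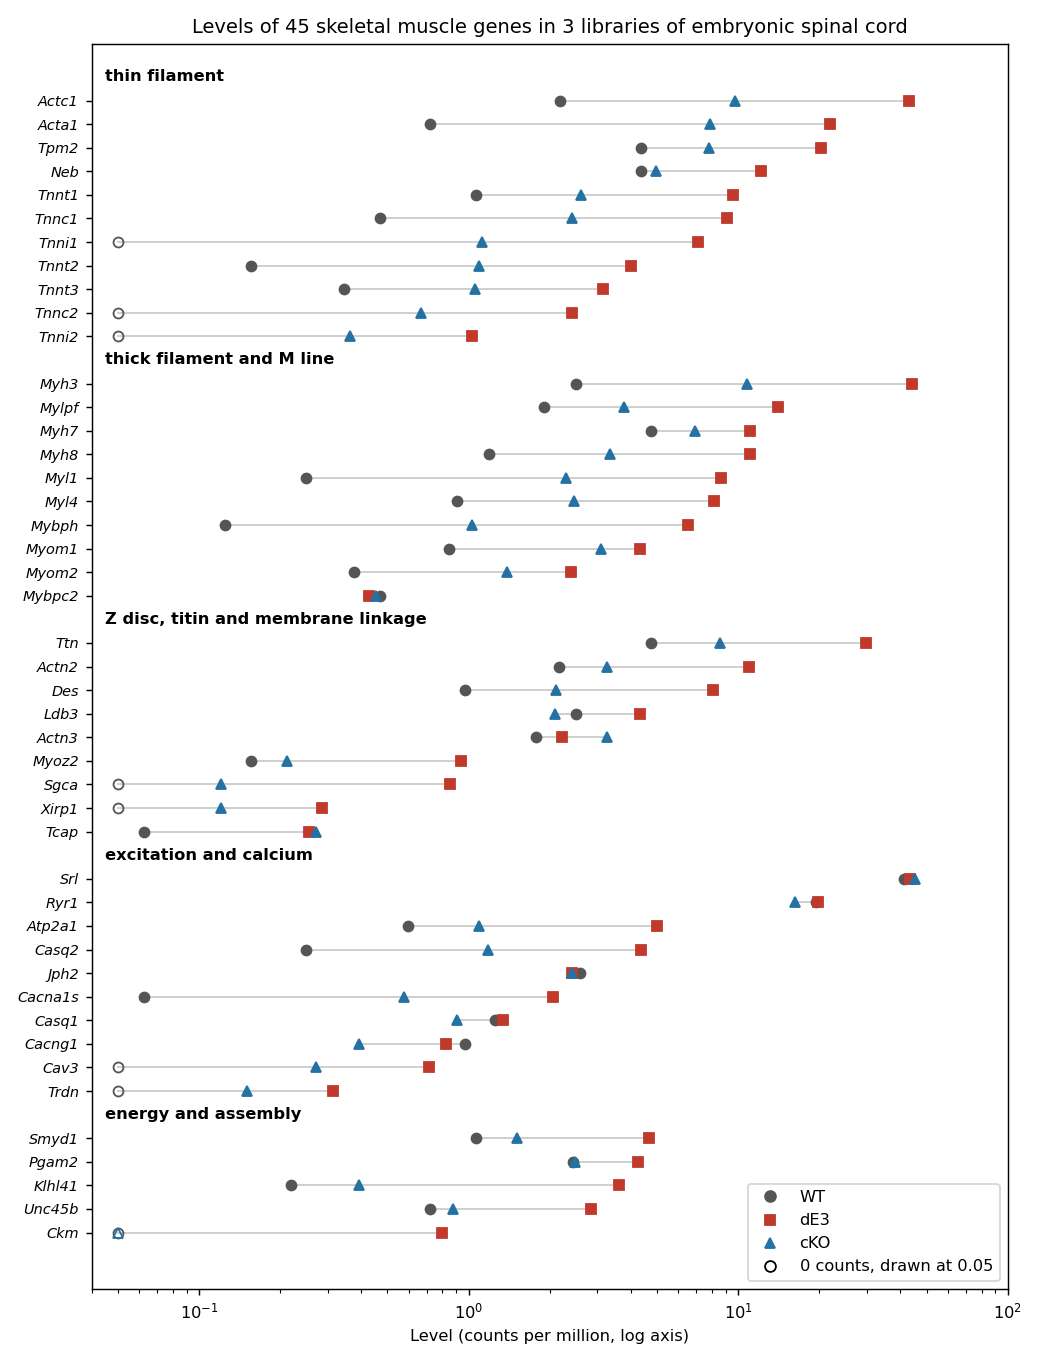
CPM level (log axis) of the 45 genes in the WT, dE3 and cKO libraries, 1 point per library, grouped by role; a count of 0 is drawn as an open symbol at the left edge. The dE3 point is the highest in 39 of 45 genes, a share not computed for all genes. Srl, Ryr1 and Jph2 lie at nearly the same level in each library.

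The median log2 ratio of the measured genes was 3.06 for dE3 over WT, 1.06 for cKO over WT and 1.73 for dE3 over cKO, with a count of 0 set to 3 counts. Over all measured genes of the table the medians were 0.00, 0.00 and 0.02. The summed level of the 45 genes was 110 CPM (WT), 398 CPM (dE3) and 169 CPM (cKO). They made up 0.0110%, 0.0401% and 0.0169% of the library counts, so they were a minor fraction of each library. Srl and Ryr1 held 55.1% of these counts in WT and 15.8% in dE3. Without those 2 genes, a choice made after seeing the data, the sums were 49.6, 335 and 108 CPM, a 6.77-fold ratio in dE3 (95% interval 6.42 to 7.14) and 2.17-fold in cKO (2.05 to 2.31). In bulk RNA, fewer cells of a type and less RNA per cell cannot be told apart.

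**Figure D2:**
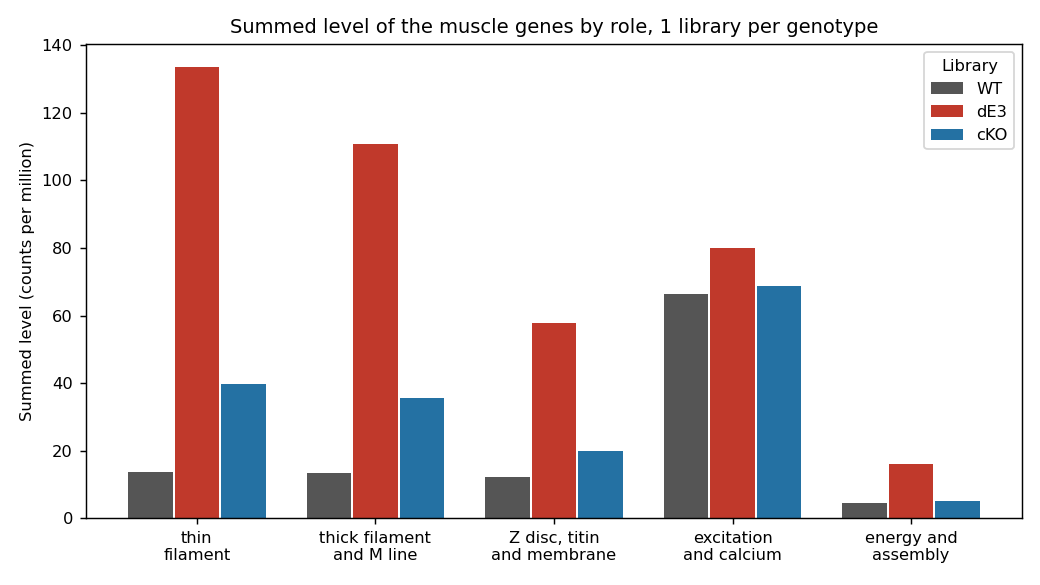
Summed level in CPM of the muscle genes of each role, 1 bar per library (WT, dE3, cKO), with no error bars because each genotype has 1 library. The filament and Z disc bars are highest in dE3, at 134, 111 and 57.7 CPM, and the excitation and calcium bars lie between 66.5 and 80.1 CPM in each library.

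Every gene of the thin filament was called higher in dE3 than in WT, and 9 of 11 were called higher in cKO. The summed level of the 11 genes was 13.7 CPM for WT, 134 for dE3 and 39.7 for cKO. Values given as 3 numbers below follow this order. Actc1, alpha cardiac actin, which embryonic skeletal muscle also uses, had 70 WT, 1504 dE3 and 322 cKO counts, or 2.19, 42.9 and 9.75 CPM. It was 19.6-fold higher in dE3 (95% interval 15.4 to 25.3) and 4.45-fold higher in cKO (3.43 to 5.85). Acta1, alpha skeletal actin, the form of mature fibres, had 23, 771 and 260 counts, or 0.720, 22.0 and 7.87 CPM. Its ratios to WT were 30.6 in dE3 (20.2 to 48.5) and 10.9 in cKO (7.13 to 17.6). Both actins were thus lowest in WT and highest in dE3, with cKO between them. Acta1 made up 24.7% of the counts of these actins in WT (exact binomial 95% interval 16.4 to 34.8), 33.9% in dE3 (31.9 to 35.9) and 44.7% in cKO (40.6 to 48.8), and the dE3 and cKO intervals do not overlap.

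The troponins, which make the thin filament respond to calcium, had from 0 (Tnni1, Tnni2 and Tnnc2) to 34 counts (Tnnt1) in WT. Tnni1, the inhibitory subunit of slow fibres, had 0, 248 and 37 counts (0, 7.08 and 1.12 CPM), which is at least 75.4-fold higher in dE3 and at least 11.9-fold higher in cKO against a floor of 3 counts in the WT library. Tnni2, the fast inhibitory subunit, had 0, 36 and 12 counts (0, 1.03 and 0.363 CPM). Its floor ratios were 10.9 in dE3 (lower limit 8.45) and 3.87 in cKO (lower limit 2.69). Where WT had 0 counts for both inhibitory subunits, Tnni1 held 87.3% of their counts in dE3 (82.9 to 91.0) and 75.5% in cKO (61.1 to 86.7). Tnnc1, the calcium-binding subunit of slow and cardiac muscle, stood at 0.469, 9.07 and 2.42 CPM from 15, 318 and 80 counts. Its fast counterpart Tnnc2 had 0, 85 and 22 counts, with floor ratios to WT of 25.8 (lower limit 20.6) and 7.10 (lower limit 5.30). The tropomyosin-binding subunits followed the same order, with Tnnt1 (slow) at 34, 335 and 86 counts, Tnnt2 (cardiac and embryonic) at 5, 140 and 36, and Tnnt3 (fast) at 11, 111 and 35. Their dE3 over WT ratios were 8.98, 25.5 and 9.20, and slow, cardiac and fast troponin genes were therefore high in the same library.

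The other thin filament genes differed less. Tpm2, beta-tropomyosin, which covers the myosin-binding face of actin, stood at 4.35, 20.3 and 7.81 CPM. It was 4.66-fold higher in dE3 (3.88 to 5.63) and, at 1.80-fold (1.46 to 2.22), not called in cKO. Neb, nebulin, the giant protein that runs along the thin filament, had 4.38, 12.1 and 4.97 CPM, 2.77-fold higher in dE3 (2.28 to 3.37), with a cKO over WT ratio of 1.13 (0.899 to 1.43).

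Among the thick filament and M line genes 9 of 10 were measured; each of the 9 was called higher in dE3 and 7 in cKO. Their summed level, including the unmeasured gene, was 13.3, 111 and 35.6 CPM. Myh3, embryonic myosin heavy chain, had 80 WT, 1548 dE3 and 356 cKO counts, or 2.50, 44.2 and 10.8 CPM. It was the member with the highest CPM in dE3, 17.6-fold above WT (14.1 to 22.4), and 4.31-fold above WT in cKO (3.37 to 5.56). Myh8, the neonatal heavy chain, had 38, 387 and 111 counts, 9.28-fold higher in dE3 (6.64 to 13.3) and 2.83-fold in cKO (1.94 to 4.20). Myh7, the slow and cardiac heavy chain, differed least, with 152, 388 and 229 counts, 2.33-fold in dE3 (1.92 to 2.83) and 1.46-fold in cKO (1.18 to 1.80). Per length, by the deposited TPM, Myh7 was the highest of these 3 heavy chains in WT (1.90 TPM against 1.02 for Myh3 and 0.460 for Myh8). In dE3 Myh3 was the highest, at 18.3 TPM against 4.74 for Myh7 and 4.51 for Myh8.

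The myosin light chains had ratios of the same kind. Myl1, the essential light chain of fast fibres, had 8, 303 and 76 counts, 34.5-fold higher in dE3 (17.3 to 80.7) and 9.19-fold in cKO (4.44 to 22.1). Myl4, the embryonic and atrial essential light chain, had 29, 286 and 81 counts, 8.99-fold and 2.70-fold higher. Myl1 therefore gave 21.6% of the counts of these light chains in WT (9.83 to 38.2), from 37 counts in all, and 51.4% in dE3 (47.3 to 55.5). Mylpf, the regulatory light chain of fast fibres, had 61, 492 and 125 counts, 7.35-fold higher in dE3 (5.63 to 9.76). Its cKO ratio of 1.98 (1.45 to 2.74) lay just under the 2-fold threshold.

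Myosin-binding and M line genes were higher in both mutants as well. Mybph, myosin-binding protein H, had 4 WT, 229 dE3 and 34 cKO counts (0.125, 6.53 and 1.03 CPM), a ratio of 52.2 in dE3 with a wide interval (20.1 to 193). Myom1 and Myom2, myomesins that crosslink thick filaments at the M line, were called higher than WT in both mutants and not called between them. Myom1 had 27, 151 and 102 counts (0.845, 4.31 and 3.09 CPM), and Myom2 had 12, 84 and 46 (0.376, 2.40 and 1.39 CPM). The dE3 over cKO ratio was 1.39 for Myom1 (1.08 to 1.81) and 1.72 for Myom2 (1.19 to 2.52). Myh7, at 1.60 (1.35 to 1.89), was the other gene of this group not called between the mutants. Mybpc2, the fast myosin-binding protein C, had 15 counts in each library and was not measured.

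Of the 9 genes of the Z disc, titin and membrane linkage, 7 were measured; 5 were called higher in dE3 and 1 in cKO. The sums were 12.4, 57.7 and 20.1 CPM. Ttn, titin, the giant spring of the sarcomere, had 152, 1043 and 284 counts (4.76, 29.8 and 8.60 CPM). It was 6.26-fold higher in dE3 (5.27 to 7.47), while its cKO ratio of 1.81 (1.48 to 2.22) was not called. Des, desmin, the intermediate filament of muscle, had 31, 283 and 70 counts, 8.32-fold higher in dE3 (5.73 to 12.5) and 2.18-fold in cKO (1.41 to 3.45). Des was the 1 gene of this group called in cKO.

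The alpha-actinins, which crosslink thin filaments at the Z disc, split. Actn2, found in fast and slow fibres, had 69, 386 and 108 counts, 5.10-fold higher in dE3 (3.94 to 6.69) and 1.51-fold in cKO (1.11 to 2.08). Actn3, the form of fast fibres, had 57, 78 and 108 counts, with a ratio of 1.25 in dE3 (0.875 to 1.79) and 1.83 in cKO (1.32 to 2.57), neither of them called. Actn2 thus held 83.2% of their counts in dE3 (79.5 to 86.5) against 54.8% in WT (45.7 to 63.6) and 50% in cKO (43.1 to 56.9).

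Among the smaller Z disc and membrane genes, Ldb3, a scaffold that binds alpha-actinin, had 80, 152 and 69 counts, not called against WT in either mutant but 2.08-fold higher in dE3 than in cKO (1.55 to 2.80). Myoz2, which links calcineurin to alpha-actinin, had 5, 33 and 7 counts, 6.02-fold higher in dE3 (2.33 to 19.7). Sgca, alpha-sarcoglycan of the dystrophin complex, had 0, 30 and 4 counts, with a floor ratio of 9.12 in dE3 (lower limit 6.97). Myoz2 and Sgca were measured only through dE3. Tcap, the titin cap, had 2, 9 and 9 counts, and Xirp1, an actin-binding repeat protein, had 0, 10 and 4, so neither was measured.

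The excitation and calcium genes were the most mixed group. Of 10 genes 9 were measured, 4 were called higher in dE3 and 3 in cKO, and 1 was called lower in cKO. The summed level was 66.5, 80.1 and 68.7 CPM. Most of that sum came from Srl, sarcalumenin, a calcium-binding protein of the sarcoplasmic reticulum, with 1318, 1516 and 1499 counts, and from Ryr1, the calcium release channel, with 624, 693 and 538. Srl was at 41.2, 43.3 and 45.4 CPM, with ratios to WT of 1.05 (0.973 to 1.13) and 1.10 (1.02 to 1.19). Ryr1 was at 19.5, 19.8 and 16.3 CPM, with ratios of 1.01 (0.907 to 1.13) and 0.834 (0.742 to 0.938). These 2 genes were the only members at 10 CPM or more in WT, and neither was called.

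Other channel and storage genes had large ratios from low WT counts. Cacna1s, the pore and voltage sensor of the skeletal muscle L-type calcium channel, had 2, 72 and 19 counts (0.0626, 2.05 and 0.575 CPM). Its ratio to WT was 32.8 in dE3 (8.76 to 276) and 9.19 in cKO (2.22 to 81.4), and with 2 WT counts the size is uncertain. Cacng1, the gamma subunit of the same channel, had 31, 29 and 13 counts, with a ratio of 0.853 in dE3 (0.496 to 1.46). In cKO its ratio was 0.406 (0.195 to 0.798), the 1 gene called lower. The subunits of 1 channel therefore did not share a pattern in these libraries.

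Calsequestrins store calcium in the sarcoplasmic reticulum. Casq2, the cardiac and slow form, had 8, 153 and 39 counts, 17.4-fold higher in dE3 (8.63 to 41.1) and 4.72-fold in cKO (2.17 to 11.7). Casq1, the fast form, had 40, 47 and 30 counts, with ratios of 1.07 (0.688 to 1.68) and 0.726 (0.436 to 1.19). Casq2 accordingly held 16.7% of calsequestrin counts in WT (7.48 to 30.2), 76.5% in dE3 (70.0 to 82.2) and 56.5% in cKO (44.0 to 68.4). Atp2a1, the calcium pump of fast fibres, had 19, 176 and 36 counts, 8.45-fold higher in dE3 (5.25 to 14.4) and 1.83-fold in cKO (1.02 to 3.38). Cav3, the muscle caveolin, had 0, 25 and 9 counts, with floor ratios of 7.60 in dE3 (lower limit 5.73) and 2.90 in cKO (lower limit 1.91). Jph2, which holds the reticulum next to the membrane, had 83, 85 and 80 counts, with ratios of 0.934 (0.682 to 1.28) and 0.933 (0.677 to 1.28). Trdn, triadin, a partner of the release channel, had 0, 11 and 5 counts and was not measured.

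Of the 5 genes of energy supply and assembly, 4 were called higher than WT in dE3 and 0 were called in cKO. Ckm, muscle creatine kinase, which regenerates ATP, had 28 counts in dE3 and 0 in both WT and cKO. Against the floor, the ratio of dE3 was 8.51 to WT (lower limit 6.47) and 8.79 to cKO (lower limit 6.69). Klhl41, a kelch protein that stabilises nebulin, had 7, 127 and 13 counts (0.219, 3.62 and 0.394 CPM), 16.5-fold higher in dE3 (7.80 to 42.0), with a cKO ratio of 1.80 (0.666 to 5.32). Smyd1, a methyltransferase of muscle needed for myosin assembly, had 34, 164 and 50 counts, 4.4-fold higher in dE3 (3.02 to 6.56). Unc45b, the myosin chaperone of striated muscle, had 23, 100 and 29 counts, 3.96-fold higher in dE3 (2.50 to 6.54). Its dE3 over cKO ratio was 3.25 by counts and 1.53 by TPM. Pgam2, the muscle phosphoglycerate mutase, had 78, 149 and 82 counts and at 1.74-fold (1.32 to 2.32) was not called. Whether the dE3 and cKO libraries differ was read from their own ratio, which was called for Ckm, Klhl41, Smyd1 and Unc45b.

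**Figure D3:**
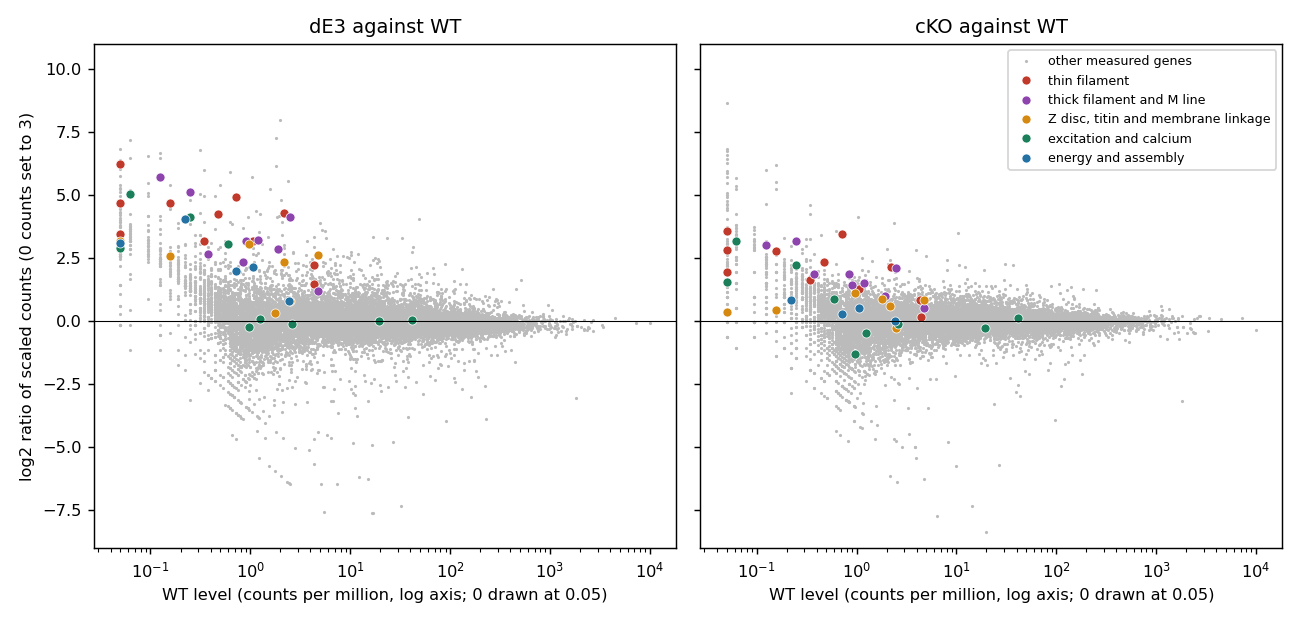
Log2 ratio of dE3 to WT (left) and of cKO to WT (right) against the WT level in CPM (log axis, 0 drawn at the left edge) for the other measured genes (grey) and the 41 measured muscle genes (coloured by role); the WT count enters both axes. The muscle genes lie mostly above 0 in both panels and higher in the left one, while Srl and Ryr1, the muscle genes farthest to the right, lie near 0.

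The cKO excess over WT was expressed as a share of the dE3 excess, (cKO minus WT) divided by (dE3 minus WT) in CPM, so that 0 means a cKO level equal to WT and 1 a cKO level equal to dE3. On the summed level of the 45 genes this excess ratio was 0.205 (Fieller 95% interval for counting error 0.186 to 0.224). Over the 33 genes called higher in dE3, it ran from 0 (Ckm) to 0.648 (Myom1), with a median of 0.199. These genes were selected for a high dE3 level, which is in the denominator, and 7 of them were measured only through dE3, so low ratios are favoured and the spread over the 33 is a description only. Of their intervals 25 held the summed value. For 26 of the 33 genes the ratio lay between 0.1 and 0.4. For 6 of the 8 measured genes not called in dE3, among them Actn3 and Srl, the ratio had no finite interval, because dE3 lay too close to WT. The summed ratio without Srl and Ryr1 was 0.203 (0.188 to 0.218).

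The 8 genes whose interval left out the summed value were of several roles. Acta1 (0.336, 0.286 to 0.390), Myom1 (0.648, 0.447 to 0.896) and Myom2 (0.503, 0.279 to 0.786) lay above it. Mybph (0.141, 0.0833 to 0.203), Ttn (0.154, 0.105 to 0.203) and Neb (0.0755, −0.0648 to 0.202) lay below it, as did Klhl41 (0.0513, −0.0286 to 0.130) and Ckm (0, −0.122 to 0.109). Among the most abundant genes, Actc1 had 0.186 (0.156 to 0.216) and Myh3 had 0.199 (0.168 to 0.230), from 322 and 356 counts in cKO. By role, the ratio was 0.217 for the thin filament (0.196 to 0.238), 0.228 for the thick filament and M line (0.204 to 0.253) and 0.169 for the Z disc, titin and membrane linkage (0.128 to 0.211). It was 0.0701 for energy and assembly (−0.0219 to 0.157), whose interval by counts lies below those of both filaments. For Unc45b of this group, the cKO over WT ratio was 1.22 by counts and 3.55 by TPM. That separation may therefore depend on the measure. For excitation and calcium the excess ratio was 0.160 (−0.161 to 0.418), an interval too wide to place.

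**Figure D4:**
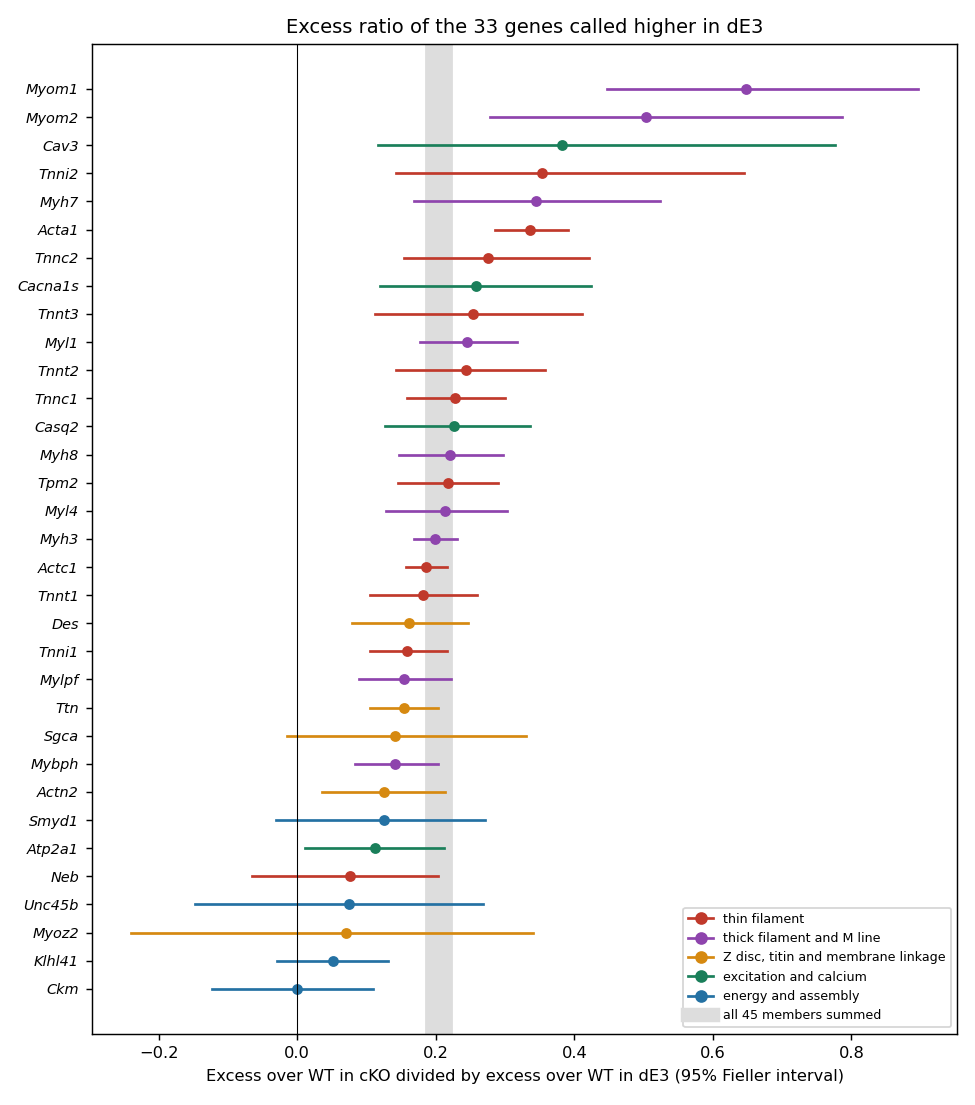
Excess ratio, (cKO minus WT) over (dE3 minus WT), with its Fieller 95% interval for counting error, for the 33 genes called higher in dE3, from the highest to the lowest and coloured by role; the grey band is the interval of the summed 45 genes, 0.186 to 0.224. Most intervals reach the band, those of Acta1, Myom1 and Myom2 lie to its right, and Ckm and Klhl41 sit nearest 0.

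Other genes of skeletal muscle and of neighbouring tissues were set beside these values. Of 54 further muscle fibre genes 35 were measured, with 19 called higher and 2 lower in dE3, and 10 higher and 1 lower in cKO. Among all measured genes the shares were 6.52% and 3.78% in dE3, and 3.48% and 3.41% in cKO. Many of the 19, such as Mymk, Mymx and Chrng, were measured only through dE3, which favours a call there. Mybpc1, the slow myosin-binding protein C, was far apart from every member, at 1.97, 499 and 2.88 CPM, and an excess ratio of 0.00182 (0.0003 to 0.00334). The summed excess ratio of the other 53 was 0.147 (0.0971 to 0.195), and Flnc, filamin C of the Z disc, carried most of it, at 75.8, 208 and 84.9 CPM. Without Mybpc1 and Flnc, a choice made after seeing the data, it was 0.561 (0.315 to 0.818) from sums of 195, 220 and 209 CPM. Most of each of those sums came from Cacnb1, at 127, 113 and 134 CPM, lowest in dE3 and not called in any comparison. A ratio without Cacnb1 as well was not computed, so 0.561 does not set these further genes apart from the members. The summed ratio depended on which genes were included. Of 9 myogenic transcription factors 7 were measured, 4 being called higher in dE3 and 3 in cKO. Pitx3, called higher in both, was measured only through dE3, with 0, 57 and 16 counts. Myog, which drives myoblast differentiation, had 21, 332 and 79 counts, 14.4-fold (9.27 to 23.6) and 3.64-fold (2.23 to 6.20) above WT, with an excess ratio of 0.197 (0.129 to 0.268). The 21 nonmuscle relatives of the members, such as Actb and Actg1 (cytoplasmic actins), gave 0 calls in either direction in each comparison, and their summed level was 5521, 6136 and 6357 CPM.

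Markers of the heart, whose genes overlap with several members, were low: 4 of 10 were measured and the summed level was 2.72, 3.48 and 3.03 CPM. Among the unmeasured markers, Nkx2-5, Gata4 and Myl7 had 0 counts in every library. Tbx5 had 0, 10 and 0 counts, Nppb 0, 0 and 6, and Mybpc3 1, 0 and 2. The measured genes were Tnni3 (14, 38 and 7 counts, called higher in dE3), Myh6 (20, 35 and 60, called higher in cKO), Tbx20 (16, 28 and 4, called lower in cKO) and Nppa (36, 11 and 21, called lower in dE3). Tnni3 and Tbx20 were measured only through dE3. Smooth muscle markers summed to 37.7, 67.6 and 60.6 CPM, with an excess ratio of 0.765 (0.655 to 0.885). Cartilage markers, a tissue of the vertebrae around the cord, were called higher in dE3 for 13 of 13 measured genes and in cKO for 11, with summed levels of 178, 1073 and 485 CPM and an excess ratio of 0.343 (0.333 to 0.353). Connective tissue markers summed to 683, 1331 and 1538 CPM, with a ratio of 1.32 (1.29 to 1.35), a sum carried by the collagens Col1a1, Col1a2 and Col3a1. Of these 8 markers 4 were called higher in dE3 and 3 in cKO, and the median log2 ratio of dE3 over cKO was 0.33, with Twist1 called higher in dE3. Epidermis markers were 5.04, 17.5 and 5.30 CPM, with a ratio of 0.0209 (−0.0714 to 0.106). Spinal cord neural markers, which define the labelled tissue, were at 4949, 4347 and 5092 CPM, and 0 of 10 were called in either mutant. The summed muscle level and the cartilage and epidermis levels were thus each highest in dE3. The intervals of the cartilage and epidermis excess ratios do not overlap with that of the muscle genes. These intervals cover counting error of the sums only. Single genes spread more widely, from 0.0622 to 0.424 among the measured cartilage markers. The part of these other tissues in the muscle values was not tested.

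Gene values were in part carried by single annotated transcripts. For 19 of the 33 genes called higher in dE3, 1 transcript held at least 90% of the dE3 counts, and 10 had a transcript with at least 20 counts in dE3 and 0 in both other libraries. Actn2 had 1 transcript with 0, 222 and 0 counts, and Smyd1 had 1 with 0, 158 and 0. Of the 33 genes 2 (Cav3 and Klhl41) have 1 listed transcript. When the transcript that differed most was left out of the other 31, 15 were still called, including Tnni1, Tnnt1, Tpm2 and Myl1. The shares of all genes with such transcripts are not given here, and the 33 were selected for high dE3 counts. These transcript counts are therefore a description only. Ryr1, whose gene total hardly differed, had 1 transcript with 584, 158 and 478 counts and another with 0, 476 and 0. For Srl, 1 transcript had 1216, 1136 and 304 counts and another 0, 296 and 1057. Such splits between transcripts of a gene are estimates of the quantification, and the gene counts above are the sums over transcripts.

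Shared sequence limits a few of the genes. In a comparison of exact 50-base words with all GENCODE vM21 transcripts on both strands, 3 of the 45 genes shared at least 20% of their words with another gene. Tnnc2 shared 47.9% with Ube2c on the opposite strand, and Ube2c was at 15.7, 30.9 and 17.6 CPM, also highest in dE3. Mybph shared 43.9% with Adora1, which was at 24.2, 16.4 and 30.9 CPM and lowest in dE3. Myh7 shared words mostly with Myh6 (15.6%), which had 20, 35 and 60 counts. The sources used here do not state whether strand was used in the counting. The values of Tnnc2 and Mybph are therefore uncertain, and the part of Ube2c in the Tnnc2 difference was not tested. Actc1 shared 0 of its words and Acta1 2.02%.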

How the data were processed

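Per the file headers, the authors deposited estimated counts for 51826 genes and 128622 transcripts, with TPM and FPKM beside them. Being whole numbers, the deposited estimated counts entered the ratios unrounded. The authors' TPM, normalised for transcript length, gave levels between genes and 1 alternative, and the deposited FPKM values were not used. Per the labels' protocols, an mRNA library kit was used on 1 µg of spinal cord total RNA. CASAVA, Bowtie2 2.3.2 and GRCm38.p6 are listed, without roles, in the submitters' processing notes. For the quantification tool, annotation and use of strand, the answer is not given in the sources used here.

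Library totals were 32167470 (WT), 34790053 (dE3) and 33048837 (cKO) estimated counts. They were scaled by TMM factors of 0.993, 1.01 and 0.999 (edgeR 4.0.16, R 4.3.3) over genes with at least 20 counts in at least 1 library. Ratios carry exact conditional binomial (Clopper-Pearson) 95% intervals and excess ratios Fieller 95% intervals (Python 3.11.15, scipy 1.17.1). The reads carry no molecular identifiers in the sources used here, so intervals and the floor of 3 counts cover counting error only. The procedure was tested on simulated counts with Poisson counting error only, with known folds placed on genes with more counts. That test does not cover variation between animals, splits between transcripts or calls of low genes. Ratios were computed on the whole table. Named are all 45 members, up to 4 genes of another list with the highest dE3 CPM, and Mybpc1. Myog, Pitx3, Twist1, the unmeasured heart markers, the pairs of related members and the genes of the closing section were chosen after their values were seen. Members and lists were chosen with earlier results of these data known. Alternatives were library totals, DESeq2 size factors (DESeq2 1.42.0), TPM, other count minimums, a 4-fold threshold and leaving out transcripts. Motifs were searched at the first listed start of each gene in RefSeq, and word sharing in GENCODE vM21.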

Additional observations from a re-analysis of the deposited data

How the results depend on the processing

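Scaling by library totals or DESeq2 size factors moved no count of calls by over 1.5 times, and all 3 comparisons kept their direction. With the authors' TPM the summed excess ratio was 0.246. With no minimum count the cKO over WT median log2 ratio was 0.93. With a minimum count of 100, 0 genes were lower in cKO. At a 4-fold threshold 11 genes were higher in cKO, 0 lower, and 9 were higher in dE3 than in cKO. Without the most different transcript of each gene with several transcripts, 19 genes were higher and 1 lower in dE3 (median 1.74), the 19 including Cav3 and Klhl41, with 1 transcript each, and Ldb3 and Ryr1, not called on the full counts. In the same setting 6 were higher and 4 lower in cKO (median 0.52), and 14 higher and 5 lower in dE3 against cKO (median 0.91). The summed excess ratio then became −0.240, a reversal. This setting removes the main transcript of many genes by construction. Shares of all measured genes are given for the main setting alone, so the counts of calls at the other settings are a description only. No paired analysis was possible because each genotype has 1 library. Depth limits low genes: 3 counts equal 0.0939 CPM in WT, and 8 of the 33 genes higher in dE3 had under 100 counts there.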

Other observations

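Several muscle fibre genes outside the 45 bear on which kind of muscle RNA was present. The adult fast myosin heavy chains were close to absent: Myh1 had 0, 10 and 2 counts in WT, dE3 and cKO, Myh2 had 19, 10 and 8, and Myh4 had 0, 2 and 2. In dE3 they stood at 0.113, 0.117 and 0.0235 TPM, below Myh3 at 18.3 TPM. The myoblast fusion genes given here were both called higher than WT in dE3. Each was measured only through its dE3 count. Mymk (myomaker) had 12, 74 and 19 counts, 5.62-fold higher in dE3 (95% interval 3.03 to 11.4). Its cKO ratio of 1.53 (0.706 to 3.46) was not called. Mymx (myomixer) had 0, 35 and 11 counts, with floor ratios of 10.6 in dE3 (lower limit 8.20) and 3.55 in cKO (lower limit 2.43).

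Genes of the neuromuscular junction did not move together. Chrng, the fetal subunit of the acetylcholine receptor, had 0, 46 and 12 counts, with a floor ratio of 14.0 in dE3 (lower limit 10.9). Chrna1, the alpha subunit, had 5, 38 and 32 counts, with an excess ratio of 0.876 (0.467 to 1.57). Musk, the receptor kinase that organises the junction, had 16, 28 and 2 counts and was lower in cKO, with a ratio of 0.121 (0.0135 to 0.514). Dok7, its adaptor, had 211, 238 and 160 counts and was not called in either mutant. Of these genes, Chrng and Musk were measured only through their dE3 counts.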
